A study of Mus musculus with 18 samples.

Results

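The TNF superfamily of ligands and the TNF receptor superfamily were examined in livers and tumors of the Alb-R26Met mouse. Members were the rows whose gene symbol starts with Tnfsf or Tnfrsf followed by a digit, which gave 32 of the 28442 genes in the table. They comprised 20 receptors, 11 ligands and 1 antisense RNA (Tnfsf13os). All 32 could be placed in the RefSeq annotation of the mouse genome, build GRCm38.p6. Genes of the superfamily under other names, such as Tnf itself, Fas or Cd40, were followed as a separate list.

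Bulk poly-A RNA-seq of 18 samples from 17 mice was used, 6 non-tumoral livers and 12 advanced tumors. Livers and tumors share the genotype. In Alb-R26Met mice a Cre recombinase under the albumin promoter removes a stop cassette before a chimeric mouse-human Met transgene at the Rosa26 locus, so that MET, a receptor tyrosine kinase, is raised in the liver, and the non-tumoral livers carry it too. No liver without the transgene was analysed here, and no sample was treated. Livers came from mice of 52 to 71 weeks (median 56.5) and tumors from mice of 49 to 72 weeks (median 65). Tumors 11 and 12 came from the same mouse. The sample labels also carry a tag, E19 (2 livers, 7 tumors) or E20 (4 livers, 5 tumors), whose meaning is not given in the sources used here. The other samples each came from a mouse of their own.

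Ligands of this superfamily are mostly trimers on the cell surface or shed from it, and each binds 1 or a few receptors. Receptors with a death domain can start caspase-dependent or necroptotic cell death, while most others recruit TRAF adaptors and switch on NF-kB and stress kinases. In liver, TNF and its receptors act both in hepatocyte death and in regeneration, and the ligand TWEAK (Tnfsf12) acts through Fn14 (Tnfrsf12a) on progenitor cells. A further group of receptors and ligands costimulates lymphocytes.

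The study describes the values as raw counts. They were taken here as TPM (transcript abundances corrected for length) rounded to whole numbers, because the sample totals are nearly equal and below that of unrounded TPM. On that reading genes can be compared within a sample per length, and the lowest levels move in steps of 1. Sample totals ran from 835144 to 907513. The row labelled Siglece took 17.9 to 53.4% of the total in 17 samples and 82.9% in tumor 2, where only 8718 genes were above 0. For tests each sample was therefore divided by a scaling factor (trimmed mean of M values). After it, 1 rounded unit was worth 0.703 to 1.27 in 17 samples but 5.14 in tumor 2. Liver 1 also stood apart from the other livers in several members below, so results that rest on liver 1 or tumor 2 are given with and without them. Of the hepatocyte markers, all 7 were tested and their summed scaled level ran from 36730 to 47199 in livers and from 34892 to 68250 in tumors. Alb makes up much of that sum. Apoa1 was called higher in tumors (0.91), and Cyp2e1 (-2.82) and Asgr1 (-0.84) lower.

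A gene was tested where its scaled value reached 1 in at least 6 samples, which kept 11708 genes. Differences were tested with limma on log2(scaled value + 1) and called at a Benjamini-Hochberg adjusted p under 0.05 over all 11708 genes. Of the 32 members 13 were tested, 10 receptors and 3 ligands. Another 9 were above 0 in some samples but below the filter, and 10 are listed at 0 in every sample. The last were 4 receptors, Tnfrsf8, Tnfrsf13b, Tnfrsf13c and Tnfrsf17, and 6 ligands, Tnfsf4, Tnfsf8, Tnfsf11, Tnfsf14, Tnfsf15 and Tnfsf18. With values taken as rounded TPM, a 0 here and below can hide a low level and does not show absence. The paper lists low mean levels above 0 in this model for Tnfsf4, Tnfsf14 and Tnfsf18.

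Of the 13 tested members 4 were called, all higher in tumors: the ligand Tnfsf13 (APRIL) and the receptors Tnfrsf12a (Fn14), Tnfrsf10b (a TRAIL receptor) and Tnfrsf18 (GITR). That is 30.8% of the tested members (25%, 3 of 12, without Tnfrsf18), beside 9.77% of all genes tested. Tnfsf13, Tnfrsf10b, Tnfrsf18 and Tnfrsf23 were below the minimum in some or all livers and entered the test through the tumors. The uncalled Tnfrsf19, Tnfrsf22 and Tnfsf10 were also below the minimum in some livers. These shares therefore only describe the members that passed and support nothing further. None was called lower, where 9.28% of all genes were. One member had an unadjusted p under 0.05 in the lower direction, Tnfrsf14. Every tumor lay above every liver in 2 of the 13 (Tnfsf13 and Tnfrsf10b, scaled values), beside 2.18% of all genes. The median difference of the tested members was 0.40 on the log2 scale (0.33 without Tnfrsf18, which is at 0 in all livers), beside -0.06 over all genes. With liver 1 and tumor 2 left out, 7 members were called higher and 1 (Tnfrsf11b) lower, as given below. The shares over all 12171 genes tested there also rose, to 16.3% higher and 14.1% lower.

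**Figure D1:**
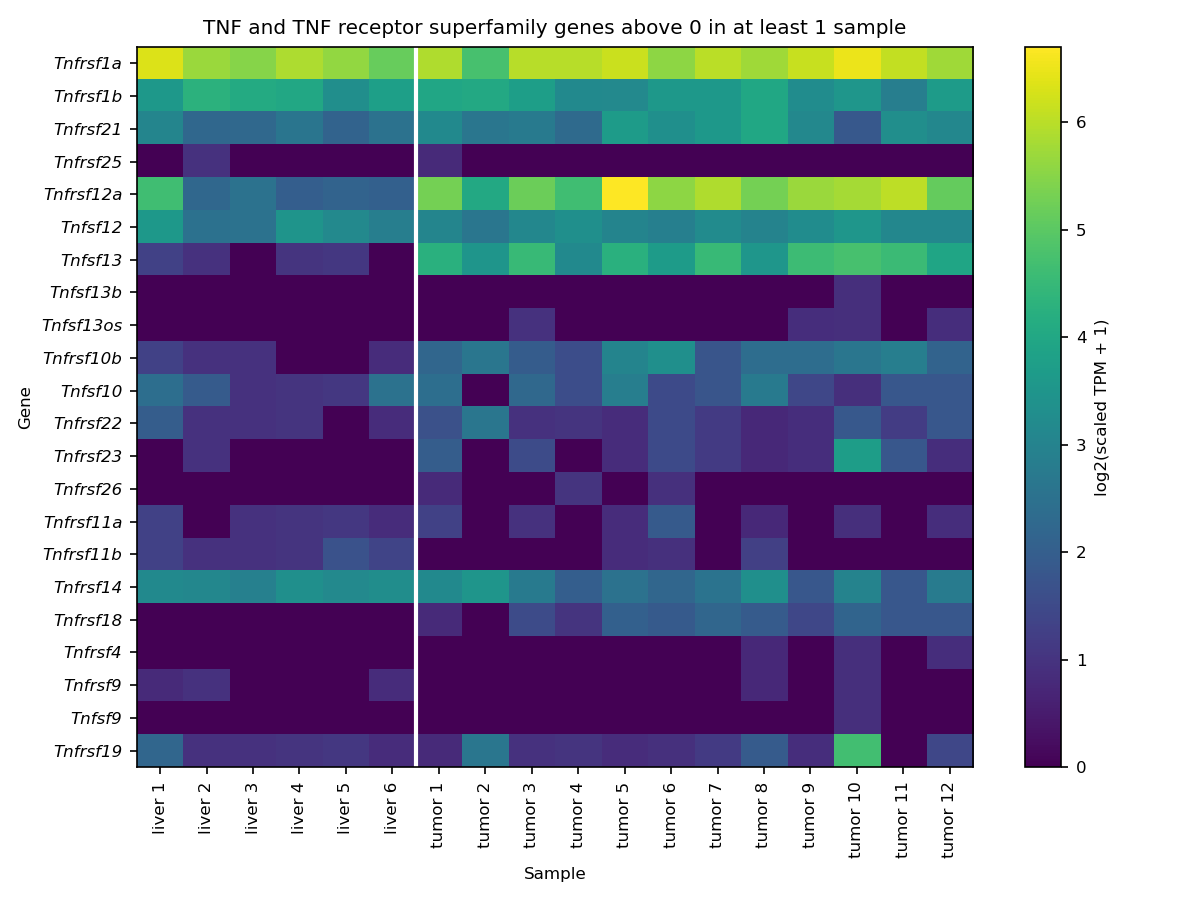
Rows are the 22 members above 0 in at least 1 sample, ordered by branch of the superfamily, columns are the 6 livers (left of the white line) and 12 tumors, and color is log2(scaled TPM + 1). Tnfrsf1a was high throughout, Tnfrsf12a and Tnfsf13 were brighter in tumors, and tumor 10 stood out in Tnfrsf19 and Tnfrsf23.

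The members' sum was dominated by few genes. Superfamily genes under other names are outside this sum, among them Ltbr, with a median of 30 TPM in livers and 41 in tumors. Summed over all members, the deposited TPM were 77 to 217 in livers (median 103) and 20 to 309 in tumors (median 175), with tumor 2 the lowest. On the scaled values the sums were 79.8 to 159 in livers (median 92.8) and 103 to 255 in tumors (median 169). The groups overlapped on both scales.

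Tnfrsf1a, the main receptor for TNF, held 42.6 to 55.8% of the livers' sum (median 51.0%) and 25 to 49.2% of the tumors' (median 34.4%). Tnfrsf12a held 2.86 to 15.2% in livers (median 3.93%) and 15 to 42.1% in tumors (median 22.8%). Tnfsf13 held 0 to 1.3% in livers and 6.28 to 13.3% in tumors, with no overlap. The share of Tnfrsf1b ran from 6.91 to 18.9% in livers and from 3.24 to 15% in tumors. In livers, then, the receptors for TNF led the members' sum, and in tumors Fn14 and APRIL took a larger part of it. These shares are descriptions within each sample and do not depend on the scaling between samples.

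**Figure D2:**
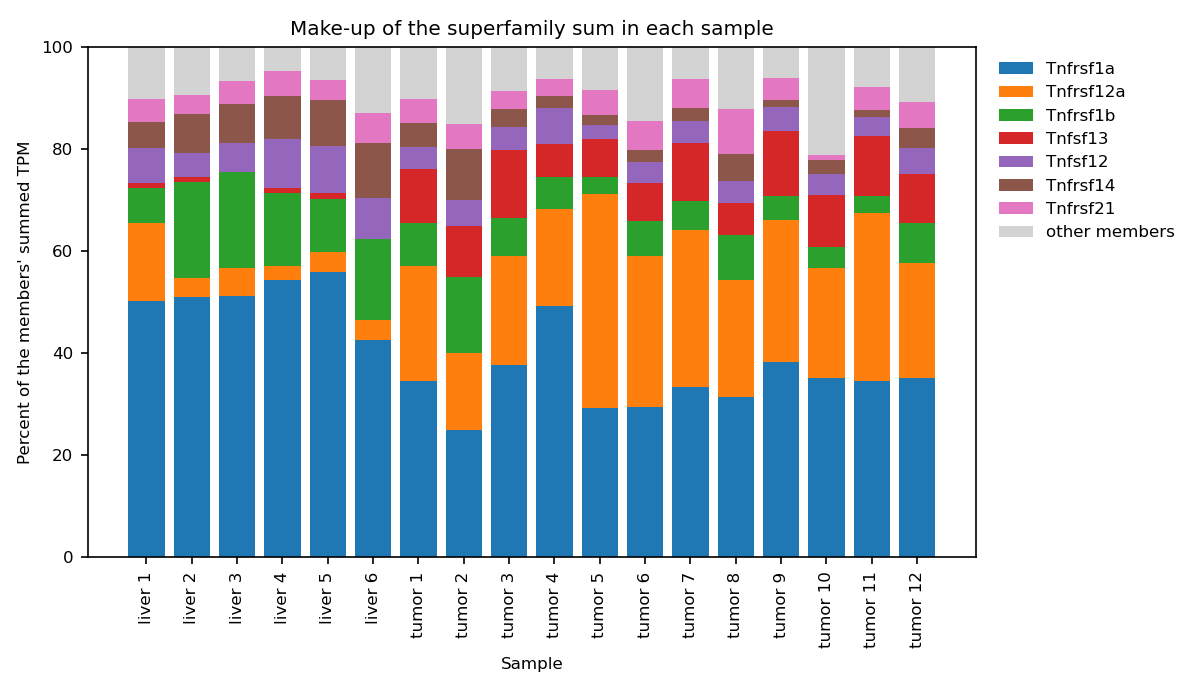
Stacked bars give the percent of the members' summed TPM in each of the 18 samples, for the most abundant members singly and for the other members pooled. Tnfrsf12a and Tnfsf13 take larger parts of the tumor bars, with liver 1 (15.2% Tnfrsf12a) nearest to the tumors among livers.

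The upstream sequence was available from the RefSeq promoter table (GRCm38.p6) for 24 of the 32 members. Among the 4 called members it was present for Tnfsf13, Tnfrsf12a and Tnfrsf18, which are shown because they are the members that were higher together in tumors. Each run is the 250 bases before the annotated start, 5′ to 3′ on the gene's strand. Tnfsf13 is chr11:69685555-69685804 on the minus strand, Tnfrsf12a is chr17:23677450-23677699 on the minus strand and Tnfrsf18 is chr4:156026072-156026321 on the plus strand. Capitals mark matches, on either strand, to the AP-1 motif TGANTCA, the GC box GGGCGG, the TATA box TATAAA or the 10-letter NF-kB consensus.
Tnfsf13: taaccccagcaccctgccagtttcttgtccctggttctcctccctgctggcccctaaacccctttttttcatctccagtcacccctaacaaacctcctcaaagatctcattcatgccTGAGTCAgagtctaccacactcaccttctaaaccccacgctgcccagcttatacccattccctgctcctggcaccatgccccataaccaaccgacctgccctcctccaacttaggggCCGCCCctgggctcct
Tnfrsf12a: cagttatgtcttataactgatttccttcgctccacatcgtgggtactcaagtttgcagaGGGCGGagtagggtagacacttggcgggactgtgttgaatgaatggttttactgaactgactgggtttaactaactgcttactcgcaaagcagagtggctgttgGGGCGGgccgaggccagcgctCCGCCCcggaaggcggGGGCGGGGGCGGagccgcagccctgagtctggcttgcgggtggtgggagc
Tnfrsf18: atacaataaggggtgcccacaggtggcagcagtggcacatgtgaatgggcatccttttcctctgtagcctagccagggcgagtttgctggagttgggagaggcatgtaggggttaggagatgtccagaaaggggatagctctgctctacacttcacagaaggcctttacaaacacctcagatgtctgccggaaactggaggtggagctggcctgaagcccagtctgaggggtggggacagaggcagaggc

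The Tnfsf13 window held 1 AP-1 match, 133 to 127 bases before the start, and 1 GC box at 16 to 11 bases. The Tnfrsf12a window held 5 GC boxes, 2 of them adjacent at 50 to 39 bases, and had 58.8% G and C with 15 CpG dinucleotides. The Tnfrsf18 window held none of the 4 motifs, with 2 CpG. The 3 windows therefore shared no motif of those searched. Over all 32851 windows of this length, 6.75% held the AP-1 motif, 32.7% a GC box, 12.4% the TATA box and 7.25% the NF-kB consensus. The median window had 52.4% G and C and 6 CpG. A match describes letters only, and no binding was measured.

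Tnfsf13 codes for APRIL, a ligand of B-lineage cells that binds the receptors BCMA (Tnfrsf17) and TACI (Tnfrsf13b) and heparan sulfate chains. The gene is at chr11:69682577-69685554. Its deposited TPM in livers were 0 at the lowest, 1 in the median and 2 at the highest, and in tumors 2, 18 and 30. Of the 12 tumors 11 were above every liver, and the remaining one, tumor 2, tied with liver 1 before scaling. Scaled values ran from 0 to 1.46 in livers and from 8.03 to 26.1 in tumors, without overlap. The difference was 3.38 on the log2 scale (SE 0.26, 95% interval 2.85 to 3.92, limma adjusted p = 1.01e-08), and 3.64 without liver 1 and tumor 2 (adjusted p = 2.20e-08). Since livers were at 0 to 2, the fold depends on the added 1.

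The neighborhood of Tnfsf13 limits how its reads can be assigned. Tnfsf12 lies next to it on the same strand, a read-through gene, Tnfsfm13, spans both, and the antisense Tnfsf13os overlaps them on the other strand. Tnfsfm13 was at 1 to 2 in livers and 1 to 4 in tumors. Tnfsf13os was at 0 in all 6 livers and at 1 in 4 tumors. Tnfsf12 did not differ detectably (below). Whether the library kept strand is not given in the sources used here, and how reads were split among these transcripts is uncertain.

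The other genes of this branch were at or near 0. Tnfrsf13b, Tnfrsf17 and Tnfrsf13c (the receptor for BAFF) are listed at 0 in every sample. BAFF itself, Tnfsf13b, was at 1 in tumor 10 and at 0 elsewhere. Of the B-lymphocyte and plasma cell markers 1 of 6 was tested and 0 were called. Their summed scaled level was 0 to 8.45 in livers and 0 to 4.35 in tumors, and Ms4a1 is at 0 in all samples.

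Tnfrsf12a codes for Fn14, a small receptor without a death domain that is induced by growth factors and injury. It is at chr17:23675445-23677449. Livers had 3, 4 and 33 TPM (lowest, median, highest) and tumors 3, 51 and 130. Liver 1 was the high liver, since the other 5 were at 3 to 5, and tumor 2 was the low tumor, with the others at 24 or above. Tumor 5 was the highest. After scaling, tumor 2 was at 15.4 and liver 1 at 24.2, so the groups overlapped in these samples, and 10 of 12 tumors were above every liver.

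The Tnfrsf12a difference was 2.84 on the log2 scale (SE 0.37, 95% interval 2.08 to 3.60, limma adjusted p = 1.17e-05). Without liver 1 and tumor 2 it was 3.41 (SE 0.24, adjusted p = 1.93e-08). Among the members, the tumor median of Tnfrsf12a was exceeded only by that of Tnfrsf1a. Of the cholangiocyte and progenitor markers 2 of 5 were tested and 1 (Spp1) was higher. Their summed scaled level was 9.44 to 19 in livers and 58.1 to 920 in tumors, with Krt19 and Epcam at 0 or 1. Spp1 makes up most of the tumors' sum, with 60 to 716 deposited TPM in tumors and 5 to 14 in livers. Sox9, the other tested marker, was not called (0.45, adjusted p = 0.315). The part of the cells behind these markers in the Tnfrsf12a difference was not tested.

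TWEAK (Tnfsf12), the ligand of Fn14, was not called. It lies at chr11:69686240-69696098. Its deposited TPM were 5, 7.5 and 15 in livers and 1, 9 and 12 in tumors (lowest, median, highest). Liver 1 was the highest sample and tumor 2 the lowest, and the groups overlapped almost completely. The difference was 0.09 on the log2 scale, with a 95% interval from -0.26 to 0.44 (limma adjusted p = 0.783), while its receptor rose.

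**Figure D3:**
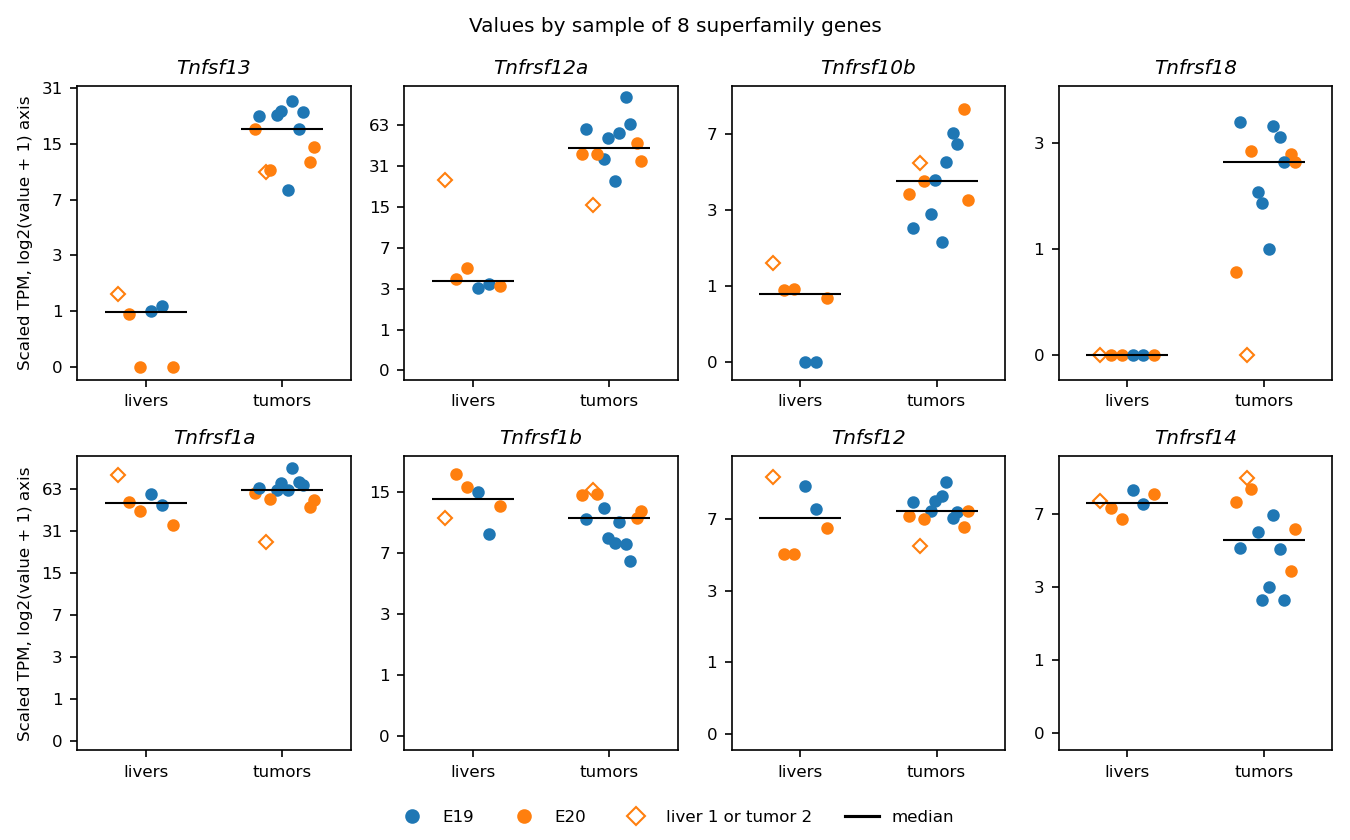
Each point is 1 sample, at its scaled TPM on a log2(value + 1) axis, colored by tag, with liver 1 and tumor 2 as open diamonds and a line at each group's median. The 4 genes of the upper row were called higher in tumors, and the 4 of the lower row are abundant members that were not called.

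Tnfrsf10b codes for the mouse death receptor for TRAIL (Tnfsf10), and lies at chr14:69767472-69784411. Livers had 0, 1 and 2 TPM and tumors 1, 5 and 10. Liver 1 was the highest liver and tumor 2 the lowest tumor, and 9 of 12 tumors were above every liver before scaling. After scaling, livers ended at 1.46 and tumors began at 2.01, with no overlap. The difference was 1.73 (SE 0.25, 95% interval 1.21 to 2.26, limma adjusted p = 5.68e-05), and 1.90 without liver 1 and tumor 2 (adjusted p = 6.12e-05). These are values of a few TPM, where rounding to whole numbers takes a large part.

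The ligand TRAIL showed no call. Tnfsf10 had 1, 2 and 6 TPM in livers and 0, 2 and 8 in tumors, with tumor 2 at 0 and both groups spread over nearly the same range. Its difference was 0.11 (95% interval -0.63 to 0.85, limma adjusted p = 0.879), and its sign turned in 4 of the alternative fits.

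Tnfrsf22, Tnfrsf23 and Tnfrsf26 are neighbors on chromosome 7, and the first pair are known as decoy receptors for TRAIL that lack a death domain. Near-identical stretches can split reads between such neighbors, so their levels are uncertain. Tnfrsf23 was above 0 in 1 of 6 livers, at 1, and in 10 of 12 tumors, where its median was 1 and its highest value 14, in tumor 10. Its difference was 1.10 (SE 0.40, limma adjusted p = 0.0573) and was not called. It was called without tumor 2 (1.28, adjusted p = 0.0210), without tumor 4 (1.21, adjusted p = 0.0307) and without both liver 1 and tumor 2 (1.23, adjusted p = 0.0356). As only 1 liver was above 0, Tnfrsf23 passed the filter through the tumors, where it is higher. Its adjusted p values mainly restate that. Tnfrsf22 was at 0 to 4 in livers and 1 to 3 in tumors, with a difference of 0.40 (95% interval -0.18 to 0.98, limma adjusted p = 0.360). Tnfrsf26 was at 1 in 3 tumors and at 0 in all livers, below the filter.

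Among the receptors for TNF, neither was called. Tnfrsf1a, which carries a death domain and is found on most cells, had 43, 50 and 109 TPM in livers and 5, 63.5 and 103 in tumors. The highest liver was liver 1 and the lowest tumor was tumor 2. The other livers were at 57 or below and the other tumors at 51 or above. The difference was 0.20 (95% interval -0.24 to 0.64, limma adjusted p = 0.584). Without liver 1 and tumor 2 it was 0.44 (SE 0.15, adjusted p = 0.0361) and was called. With all samples kept under quality weights it was 0.42 and was also called (adjusted p = 0.0271). The outcome for Tnfrsf1a thus depends on the samples kept and on their weights.

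Tnfrsf1b, the second receptor for TNF, which signals through TRAF2 and is found mostly on immune and endothelial cells, had 8, 15.5 and 20 TPM in livers and 3, 11 and 21 in tumors. Its difference was -0.30 (95% interval -0.69 to 0.09, limma adjusted p = 0.289). Leaving out liver 1 and tumor 2 gave -0.40 (adjusted p = 0.126). With quality weights it was -0.43 and was called lower (adjusted p = 0.0321), beside 2371 of all 11708 genes. The median of Tnfrsf1b was thus lower in tumors and that of Tnfrsf1a higher, with overlap of the groups in both.

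Tnf itself was below the filter, at 0 to 1 in livers and 0 to 2 in tumors. Fewer cells of a type and less RNA per cell cannot be told apart in these bulk samples. For Tnfrsf1b the levels of 2 cell types that express it are given as measured. The macrophage and Kupffer cell markers had a summed scaled level of 45.0 to 130 in livers and 10.1 to 95.7 in tumors, with 7 of 8 tested, 0 higher and 2 lower (Clec4f and Marco). Endothelial markers had 22.0 to 69.3 in livers and 20.0 to 211 in tumors, or 46.6 to 69.3 and 20.0 to 69.6 without liver 1 and tumor 2, with all 6 tested and 2 higher (Pecam1 and Cdh5). Their part in the result was not tested.

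Other receptors with a death domain were Tnfrsf21 (DR6) and Tnfrsf25 (DR3). Tnfrsf21, at chr17:43016555-43089188, had 3, 4.5 and 10 TPM in livers and 1, 9 and 21 in tumors. The lowest tumors were tumor 2 (1) and tumor 10 (3), and liver 1 was the highest liver. The difference was 0.60 (SE 0.25, 95% interval 0.08 to 1.12, limma adjusted p = 0.103) and was not called. It was called without tumor 10 (0.71, adjusted p = 0.0250) and without liver 1 and tumor 2 (0.77, adjusted p = 0.0343). Tnfrsf25 was at 1 in 1 liver and 1 tumor, and its ligand Tnfsf15 is at 0 throughout.

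**Figure D4:**
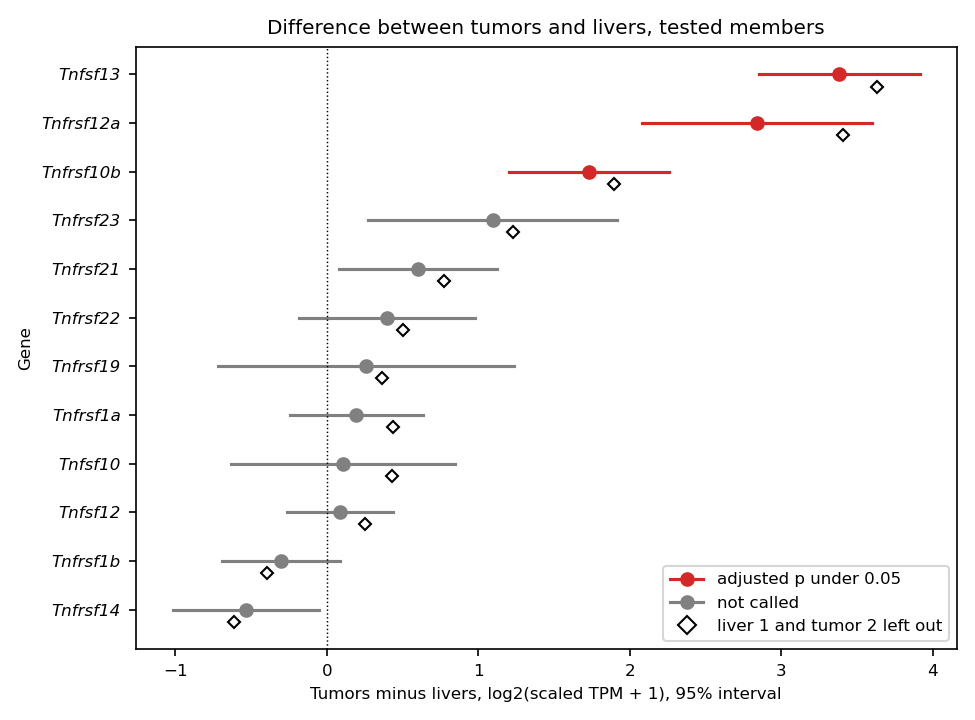
Points are tumor minus liver differences on log2(scaled TPM + 1) with 95% intervals for 12 tested members (Tnfrsf18, at 0 in every liver, is left out), and open diamonds show the same difference without liver 1 and tumor 2. Tnfsf13, Tnfrsf12a and Tnfrsf10b (red) stand to the right of all others, and all 12 keep their sign without the 2 samples.

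Of the costimulatory receptors, Tnfrsf18 (GITR), best known from regulatory and activated T cells, was the only one called. It is listed at 0 in all 6 livers and was at 1 to 4 in 11 of 12 tumors (median 2.5), with tumor 2 also at 0. Since livers were at 0 no fold is given. It passed the filter only through the tumors, where it is high, so its limma adjusted p (0.000351, and 1.08e-05 without liver 1 and tumor 2) restates that it was above 0 in tumors alone. Its ligand Tnfsf18 is at 0 in every sample.

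The T-lymphocyte markers were at or near 0 beside it. None of the 6 was tested, and their summed scaled level was 0 to 2.82 in livers and 0 to 8.71 in tumors, with a tumor median of 0. Foxp3 is at 0 in all samples, and Cd3e was above 0 in 3 livers and 2 tumors. All 4 natural killer markers were also untested, with sums of at most 0.938 in livers and 0.956 in tumors. Neutrophil markers (1 tested) and dendritic cell markers (2 tested) held no call, with sums of at most 5.13 in livers and 5.14 in tumors.

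Tnfrsf14 (HVEM), a receptor that binds LIGHT and BTLA, had a lower median in tumors. It had 7, 8.5 and 11 TPM in livers and 2, 5 and 13 in tumors. In 8 of 12 tumors it was below every liver, while tumor 8 was above all livers. After scaling, tumor 2 had the highest value of all 18 samples, 10.3, made of 2 rounded units. The difference was -0.53 (SE 0.23, 95% interval -1.02 to -0.05, limma adjusted p = 0.117) and was not called. Without tumor 2 it was -0.60 and was called (adjusted p = 0.0412), and without liver 1 and tumor 2 it was -0.61 and was not (adjusted p = 0.0526). LIGHT (Tnfsf14) is at 0 in every sample.

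The remaining costimulatory genes were near 0. Tnfrsf4 (OX40) was at 1 in 3 tumors and at 0 in all livers. Tnfrsf9 (CD137) was at 1 in 3 livers and 2 tumors, and its ligand Tnfsf9 at 1 in 1 tumor. Tnfsf4, Tnfsf8 and Tnfrsf8 are at 0 throughout.

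In the RANK branch, which governs osteoclasts and also acts on epithelia, no member passed the filter. Osteoprotegerin (Tnfrsf11b), a soluble decoy receptor for RANKL and TRAIL at chr15:54250619-54278484, was at 1 or 2 in every liver (median 1.5) and at 0 in 9 of 12 tumors, with 3 tumors at 1 or 2. It was left out because a value of 1 falls below the minimum in most samples after scaling. With no filter on low values it was called lower (-0.96, limma adjusted p = 0.00278), beside 7.91% of 15568 genes. Without tumor 2 it passed the filter and was called lower (-0.99, adjusted p = 0.00442), beside 11.4% of 12220 genes. Without liver 1 and tumor 2 it was also called lower (-0.96, adjusted p = 0.00825), beside 14.1% of 12171 genes. With only 3 tumors above 0, it could pass the filter only with the livers, where it is higher. The adjusted p of these 2 fits therefore mainly restate that. RANK (Tnfrsf11a) was at 0 to 2 in livers and 0 to 3 in tumors, and RANKL (Tnfsf11) is at 0 in every sample.

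Tnfrsf19 (TROY), a receptor without a known TNF ligand that is a target of Wnt signaling in other tissues, was carried by single samples. Of 6 livers 5 were at 1 and liver 1 was at 5. Tumors had a median of 1, with tumor 10 at 28 and the next tumor at 4. The difference was 0.26 (95% interval -0.72 to 1.23, limma adjusted p = 0.768), and -0.04 without tumor 10.

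Tumor 10 was thus the highest sample for Tnfrsf19, Tnfrsf23 and Tnfsf13, and the only one with Tnfsf13b or Tnfsf9 above 0. After scaling it was also the lowest sample for Tnfrsf21. Its mast cell markers summed to 47.9 on the scaled values. In no liver was any of these 4 markers above 0, and 2 of them (Mcpt4 and Tpsb2) were each above 0 in 1 further tumor. It had the highest T-lymphocyte sum as well (8.71). The part of these cells in the values of tumor 10 was not tested.

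Tumors 11 and 12, from 1 mouse but with different tags, had similar deposited values in the called members. Tnfsf13 was at 18 and 17, Tnfrsf12a at 51 and 40, Tnfrsf10b at 5 and 4 and Tnfrsf18 at 2 and 3. On the deposited values they differed more in Tnfrsf1b, at 5 and 14, and in Tnfrsf14, at 2 and 7. After scaling, called members differed too, with Tnfsf13 at 22.8 and 14.4, Tnfrsf12a at 64.6 and 33.9 and Tnfrsf10b at 6.33 and 3.39. Tnfrsf18 was then at 2.53 and 2.55, Tnfrsf1b at 6.33 and 11.9 and Tnfrsf14 at 2.53 and 5.94. With tumors 11 and 12 averaged to 1 sample, the same 4 members were called.

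The tags were compared next, because E19 and E20 samples are unevenly spread over livers and tumors. The difference between tumors and livers was not found to depend on the tag for any member. Of the 13 members 0 had an adjusted p under 0.05 for this interaction in limma, and 0 an unadjusted p under 0.05, beside 0% and 348 of all 11708 genes. Within E19, Tnfsf13 had 1 TPM in both livers and 8 to 30 in 7 tumors, with a difference of 3.33 (limma adjusted p = 0.000377). Within E20, livers were at 0 to 2 and tumors at 2 to 25, with a difference of 3.21 (adjusted p = 0.000585). The APRIL difference thus had nearly the same size in both tags.

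Tnfrsf12a differed by 3.69 within E19 (livers 3, tumors 24 to 130, limma adjusted p = 0.000590) and by 2.20 within E20 (livers 4 to 33, tumors 3 to 55, adjusted p = 0.0361). Liver 1 and tumor 2 are both E20. The difference between these differences was -1.44 (95% interval -2.96 to 0.07, unadjusted p = 0.0610). Tnfrsf10b differed by 2.33 within E19 (adjusted p = 0.00354) and by 1.52 within E20 (adjusted p = 0.0153). Tnfrsf18 was called within E19 (adjusted p = 0.00580) and did not pass the filter within E20. With so few livers per tag, these intervals are wide.

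Other genes of the pathway were followed in 4 lists. Of 70 genes 56 were tested, 11 were called higher (beside 9.77% of all genes) and 4 lower (beside 9.28%), and 7 are at 0 in every sample. Of the higher ones, Eda2r, Cd40, Mlkl, Relb, Ccl2 and Ier3 were at 0 in some or all livers and passed the filter only with the tumors. Ngfr, called lower, was above 0 in only 4 tumors and passed only with the livers. These counts therefore only describe the genes that passed. The median difference of the tested genes was 0.14. Of the 15 called genes 11 were called whichever single sample was left out, the exceptions being Cd40, Ccl2, Junb and Map3k5, whose calls were lost without some of the livers and, for Junb, also without tumor 4, 6, 7, 10 or 11. Leaving out tumor 2 gave 7 lower of 57 tested, beside 11.4% of all genes in that fit.

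The other ligands of the superfamily were hardly present. Of 7 genes 0 were tested, and 4 are at 0 in every sample (Lta, Cd40lg, Fasl and Cd70). Ltb was at 0 to 1 in livers and 0 to 2 in tumors. Eda, which codes for ectodysplasin, was at 0 to 3 in livers (median 2) and 0 to 1 in tumors.

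Of 8 other receptors 5 were tested, with 2 higher and 1 lower. Eda2r, the receptor for ectodysplasin A2, is at 0 in every liver and was at up to 5 in tumors (median 2, limma adjusted p = 0.00368), and it too passed the filter only through tumors. Cd40, a receptor of antigen-presenting cells, was at 0 to 1 in livers and 0 to 5 in tumors, a difference of 1.03 (adjusted p = 0.0218). Cd40 likewise passed the filter only with the tumors, where it is higher, and its call mainly restates that. Ngfr, the low-affinity neurotrophin receptor, was lower, at 1 to 9 in livers (median 3.5) and with a median of 0 in tumors, a difference of -1.63 (adjusted p = 0.00720). The fibroblast and stellate cell markers, which are known to include cells with Ngfr, had 3 of 6 lower (Dcn, Lrat and Des) and 1 higher (Col1a1), and a summed scaled level of 54.9 to 89.4 in livers and 33.4 to 90.2 in tumors. Their part in the Ngfr value was not tested. Fas (0.73, adjusted p = 0.125) and Ltbr (0.39, adjusted p = 0.0958) were not called, but Ltbr was called higher without tumor 2 (0.46, adjusted p = 0.0204).

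The adaptors, kinases and ubiquitin enzymes changed little as a list. Of 32 genes 30 were tested, 2 were called higher and 1 lower, and their median difference was -0.06, beside -0.06 over all genes. Mlkl, the executor of necroptosis, had 0, 1 and 4 TPM in livers and 1, 5 and 12 in tumors, a difference of 1.53 (SE 0.26, limma adjusted p = 0.000232). Its upstream kinase Ripk3 was at 0 to 1 in both groups and was not tested. Traf3, a TRAF adaptor that restrains noncanonical NF-kB signaling, rose by 0.62 (adjusted p = 0.00608). Map3k5 (ASK1), a stress kinase, fell by 0.67 on the log2 scale (adjusted p = 0.0223). For Tradd, Fadd, Ripk1 and Casp8, which form the death-inducing complexes, differences ran from -0.30 to 0.18 with adjusted p of 0.540 and above.

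NF-kB subunits, inhibitors and target genes had the largest number of calls. Of 23 genes 21 were tested, with a median difference of 0.48. Of these, 7 were called higher (Ier3, Relb, Icam1, Nfkb2, Nfkb1, Ccl2 and Junb), beside 9.77% of all genes. Another 2 were called lower (Nfkbia and Sod2), beside 9.28% of all genes. Ier3, an immediate early gene, had 0, 1 and 3 TPM in livers and 2, 14.5 and 36 in tumors, a difference of 2.87 (SE 0.45, limma adjusted p = 0.000131). Relb, a subunit of the noncanonical pathway, rose by 1.03 (adjusted p = 0.00142), from 0 to 1 TPM in livers to 1 to 4 in tumors. Relb and Ccl2, both at 0 to 1 in livers, passed the filter only with the tumors, where they are higher. Their calls mainly restate that. Icam1, an adhesion molecule, rose by 0.84 (adjusted p = 0.00738).

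The genes that fell in this list are themselves known NF-kB targets. Nfkbia, the inhibitor IkB alpha, had 26, 35 and 42 TPM in livers and 4, 20 and 30 in tumors, and fell by 0.79 on the log2 scale (limma adjusted p = 0.000995). Sod2, the mitochondrial superoxide dismutase, had 94, 114.5 and 125 TPM in livers and 7, 74.5 and 101 in tumors, and fell by 0.74 (adjusted p = 0.00574). Target genes of the list thus differed in both directions. Tnfaip3 (A20), listed with the adaptors, had a difference of 0.48 (adjusted p = 0.153) and was called higher without tumor 2 (0.65, adjusted p = 0.00134). Cxcl1, a chemokine for neutrophils that was at 63 in liver 1, differed by 1.06 (adjusted p = 0.107), and by 1.79 without liver 1 and tumor 2 (adjusted p = 6.52e-05).

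**Figure D5:**
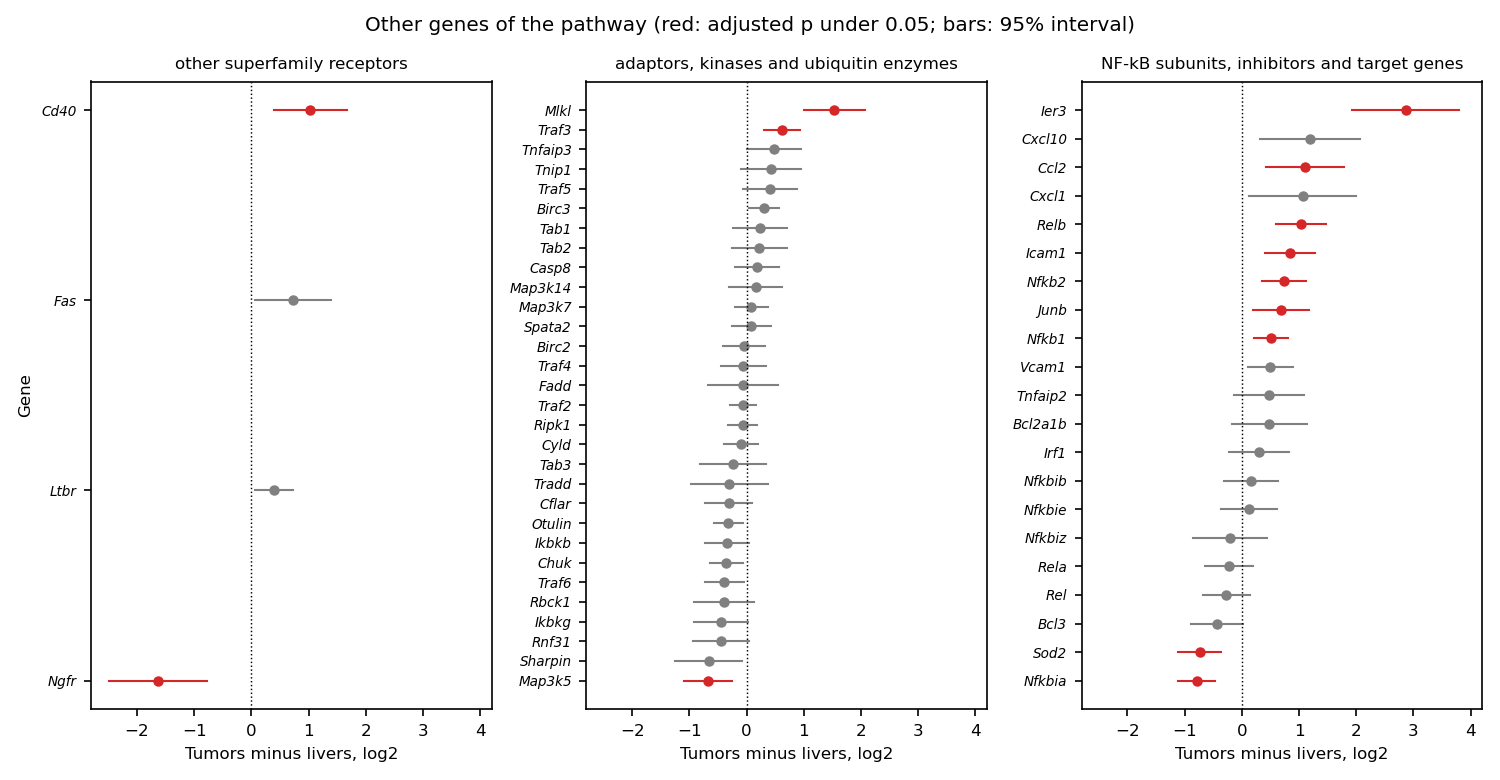
Points are tumor minus liver differences on log2(scaled TPM + 1) with 95% intervals for the tested genes of 3 lists (Eda2r, at 0 in every liver, is left out), red where the adjusted p was under 0.05. The adaptors hold 3 red points, Mlkl and Traf3 to the right of 0 and Map3k5 to the left, and the NF-kB list holds red points on both sides.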

How the data were processed

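Members were found by gene symbol in the deposited table, and the members and gene lists were chosen with earlier results of these data known. Per the authors' methods, reads of poly-A RNA were aligned to GRCm38, quantified with Salmon and normalized as TPM, and the submitters' processing notes also name edgeR. Each deposited value, described by the authors as a raw count, is a whole-number score and was taken as a rounded TPM value, the largest sample total being 907513. TPM keep no read depth, so no counting interval is given. All 18 columns of values were matched to samples. For tumors 3 and 10 the mouse number in the labels differs from that in the study's list, and their column and age were matched by the tumor number and tag. Lines with an extra separator, 8 in all, were repaired. Ages came from the study's list of mice.

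Samples were divided by an unweighted trimmed mean of M values (30% of M and 5% of A values trimmed at each end), and genes at 1 or more in at least 6 samples were kept. log2(value + 1) was compared with limma 3.58.1 in R 4.3.3 (moderated test with a trend, 2 groups, no covariate), with Benjamini-Hochberg adjustment and 95% intervals from its standard errors. An interaction of tissue and tag was fitted in the same way. The fit was tested on simulated data. Values are given per group for called members and the 8 tested members with the highest median, and up to 3 called genes in each direction are named for each list. Tables and figures used Python 3.11.15, pandas and matplotlib. Alternatives were other scalings, pseudocounts and filters, tag or age as a covariate, quality weights, subsets of samples and each sample left out. Those without liver 1 and tumor 2, with scaling by the total without Siglece, and without both scaling and tumor 2, were chosen after seeing the data.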

Additional observations from a re-analysis of the deposited data

Results flagged for a closer look

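For continuous values, chance alone would mark about 1 in 20 groups, or 1.1 of the 22 gene results whose 6 livers were compared with one another. Many values here are low whole numbers with ties, so 1.1 is no firm baseline. In all, 6 were marked because 1 liver lay far from the other 5. For each, the far liver's distance from its nearest neighbor was taken as a share of the range (scaled values), and 0.625 is the critical value for 6 samples. Liver 1 was the far sample in 4 of them. Tnfrsf12a was at 33 there and at 3 to 5 in the others (ratio 0.919), Tnfrsf19 at 5 and 1 (0.886), Tnfrsf22 at 4 and 0 to 1 (0.657), and Traf3 at 7 and 2 to 4 (0.680). Of the rest, Tnfrsf23 was above 0 only in liver 2, at 1 (ratio 1), and Relb was at 1 in all livers except liver 3, where it was at 0 (0.655). Both are steps of a single rounded unit.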

How the results depend on the processing

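Tnfsf13, Tnfrsf12a and Tnfrsf10b stayed called in all 34 alternatives, and Tnfrsf18 in the 31 that tested it. Quality weights added Tnfrsf1a, Tnfrsf21 and Tnfrsf23 as higher, and Tnfrsf14 and Tnfrsf1b as lower. The count of members higher in tumors, 4, was 4 to 5 with single samples left out, 7 with quality weights and 7 without liver 1 and tumor 2. It was 3 in E20 alone and in livers and tumors 1 to 6, blocked or unblocked, where Tnfrsf18 was not tested. The count of lower members, 0, became 1 without scaling, 1 with no filter, 2 with quality weights, 1 without liver 1 and tumor 2, 1 without scaling and tumor 2, and 0 to 2 with single samples left out. The count of higher pathway genes, 11, became 7 without scaling, 18 with quality weights, 6 in E19 alone and 2 in E20 alone, and was 9 to 15 with single samples left out. That of lower ones, 4, became 2, 11, 3 and 0 there, 8 without liver 1 and tumor 2, and 3 to 7 with single samples left out. The livers and tumors numbered 1 to 6 gave 4 higher pathway genes both with the number as a replicate block and unblocked. Livers and tumors came from different mice, so numbers were not taken as pairs. Same-numbered samples correlated at -0.105 to 0.422 and 3 of 6 fitted their own number best, which cannot decide on pairing. The block gave 675 higher and 684 lower genes in all, and 643 and 569 unblocked. No interaction with the tag was called in any of 24 alternatives.

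Of 418 alternative values of single members 393 kept direction and call, 15 became called and 10 changed sign, all of uncalled members. The last were Tnfrsf19 (-0.036 to 0.47 with single samples left out, the lowest without tumor 10), Tnfsf10 (-0.27 in E20 alone, -0.033 to 0.29 with single samples left out, negative without liver 3, 4 or 5), Tnfsf12 (-0.048 without scaling, -0.033 in E19 alone, -0.013 to 0.20 with single samples left out, negative without liver 2 or 3) and Tnfrsf1a (-0.12 in E20 alone). The cause was not tested. Omitting scaling moved the median of all genes by -0.12, and scaling by the total without Siglece moved the share of higher calls from 51.3% to 62.3% (1132 higher, 684 lower). Quality weights called 2331 higher and 2371 lower genes, beside 1144 and 1087.

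Rounded TPM below about 3 carry 1 significant digit at most, and reads behind them are unknown.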
